A study of Homo sapiens with 9 samples.

Results

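NF-κB is a family of dimeric transcription factors, and 10 genes of its circuit were followed here: the subunit genes NFKB1, NFKB2, RELA and RELB, the inhibitor genes NFKBIA and TNFAIP3, and the target genes BIRC3, ICAM1, TNFAIP2 and SOD2. The members were the rows of the deposited gene table that carry one of these 10 symbols, and all 10 were found among its 27407 features. RNA sequencing was done on Weri-RB1/CRP, which the labels give as a retinoblastoma line resistant to the platinum drug carboplatin. Cells in the first group carried the short hairpin shSNHG1#1 and those in the second shSNHG1#2, both meant to deplete the long noncoding RNA SNHG1. The third group carried the control hairpin shNC. Each group has 3 libraries, and all groups share the resistant line, the RPMI culture medium with serum and the absence of any labelled drug treatment. Nothing in the labels tells whether the 3 libraries of a group are separate cultures, and each p-value therefore reflects only their spread, which may be technical. The table names its columns by 1, 2 and NC with a replicate number, which were matched to shSNHG1#1, shSNHG1#2 and shNC. The SNHG1 transcript itself is not analysed here.

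In resting cells NF-κB dimers are held in the cytoplasm by IκB proteins, of which NFKBIA encodes IκBα. Signals from TNF, interleukin-1 or Toll-like receptors activate the IκB kinase complex, IκB is degraded, and RELA-containing dimers enter the nucleus. A slower, noncanonical route processes the NFKB2 product p100 and releases RELB-containing dimers. Dimers bind κB sites and switch on genes of inflammation, adhesion and survival together with their own inhibitors, NFKBIA and TNFAIP3, so that the response limits itself.

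The promoter sequences below are shown because most of these genes are textbook targets of the factors whose subunit genes are on the same list. The searched windows are the 250 bases before each annotated gene start in RefSeq (GRCh38.p14), on both strands, and 9 members had an entry, with 16 windows in all. The motif GGNNNTTCC, a κB-like pattern, was present in 8 of 16 windows, against 17.1% of 35116 windows of all genes. By gene, 7 of 9 members had a match in any of their windows, and the like share of all genes was not computed. RELA and SOD2 had no match in these windows. A looser κB-like pattern was also searched in an earlier run and is not reported here. A match describes the letters and is no evidence of binding. Stretches of 60 bases on the strand of the gene follow, 5′ to 3′, with matches to GGNNNTTCC on either strand in capitals.
TNFAIP3, chr6:137867172-137867231, plus strand: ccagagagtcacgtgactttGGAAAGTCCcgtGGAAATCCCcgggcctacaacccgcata
NFKBIA, chr14:35404797-35404856, minus strand: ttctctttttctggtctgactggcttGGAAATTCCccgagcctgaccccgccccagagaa
NFKB1, chr4:102501285-102501344, plus strand: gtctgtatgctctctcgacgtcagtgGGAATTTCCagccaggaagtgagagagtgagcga
BIRC3, chr11:102317259-102317318, plus strand: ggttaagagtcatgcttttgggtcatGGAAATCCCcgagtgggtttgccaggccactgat
ICAM1, chr19:10270908-10270967, plus strand: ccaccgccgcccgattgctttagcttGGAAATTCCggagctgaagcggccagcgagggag
TNFAIP2, chr14:103123338-103123397, plus strand: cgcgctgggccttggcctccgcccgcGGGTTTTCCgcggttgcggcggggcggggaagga
The TNFAIP3 stretch holds 2 matches separated by 3 bases, and each of the other 5 stretches holds 1.

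**Figure D1:**
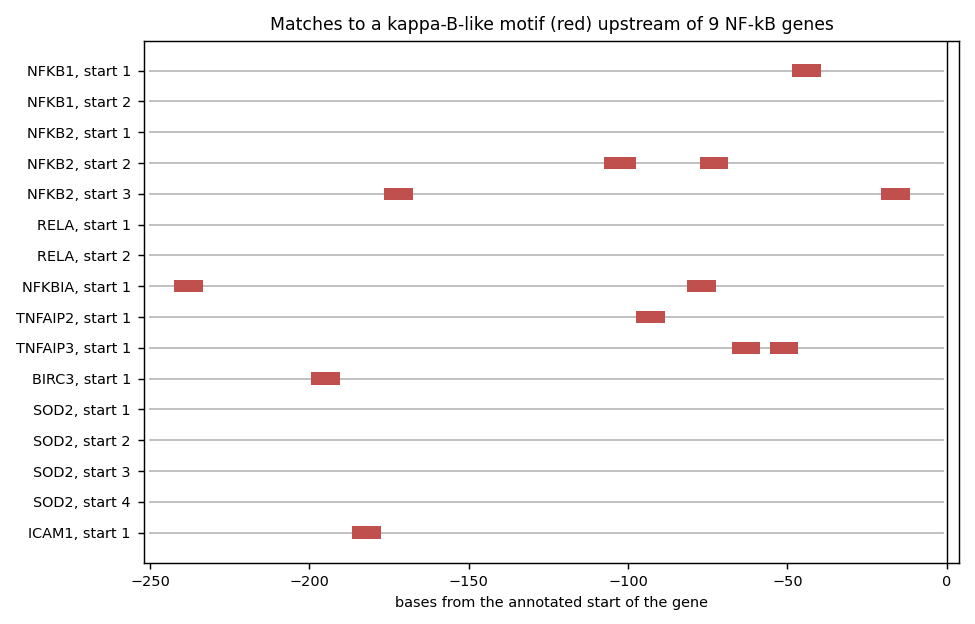
Places of the κB-like motif GGNNNTTCC in the 250 bases before each annotated start of 9 NF-κB genes (x axis, bases from the start; a line per start; red marks, matches on either strand). Red marks are present on 8 of 16 lines, and none lie on the RELA or SOD2 lines.

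Total estimated counts were 21502093 to 21606498 per library, so depth was nearly even. One feature without a symbol took 12.2% to 13.5% of counts with shSNHG1#1 and 11.8% to 12.1% with shSNHG1#2, against 6.57% to 7.09% with shNC; its part in the results was not tested. The labelled cell type was checked against photoreceptor and retinoblastoma markers, and 6 of the 8 listed markers found in the table were below 1 FPKM (the authors' level, scaled to transcript length and library size) in every library (OTX2, also listed, is not analysed here), with CRX at no more than 0.03 and RCVRN at no more than 0.09 FPKM. The summed photoreceptor markers reached 18.67 to 19.19 FPKM with shSNHG1#1, 18.67 to 19.59 with shSNHG1#2 and 20.38 to 22.02 with shNC, most of it GNAT2. Over all libraries GNAT2 was at 15.97 to 19.56 and THRB at 1.63 to 2.43 FPKM. The epithelial markers, 6 in all, summed to 1517.92 to 1610.39, 1522.99 to 1613.58 and 1637.23 to 1638.15 FPKM in the same groups. Most of that sum was the keratins KRT8 and KRT18, while EPCAM was at 1.56 to 3.56 and CLDN4 at 3.56 to 8.69 FPKM. Apart from GNAT2 and THRB, the photoreceptor and retinoblastoma markers therefore do not bear out the labelled retinoblastoma line. Weri-RB1/CRP is used here as the label, and the identity of the cells was not tested further. One library, shSNHG1#1 replicate 1, stood apart: its fibroblast markers summed to 15.56 FPKM, against 3.3 and 3.47 in the other shSNHG1#1 libraries and 1.86 to 2.54 in shNC, and its leukocyte and endothelial sums were also the highest at 10.64 and 4.06 FPKM. Without that library the same numbers of members passed against shNC, 2 higher and 7 lower with shSNHG1#1 and 1 higher and 8 lower with shSNHG1#2.

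Among the 10 members, 7 fell with both hairpins, against 19.7% of all tested features that were called lower with both. TNFAIP2 rose with both, against 20.3% of features called higher with both, SOD2 was called in opposite directions, against 0.0533% of features, and NFKB2 passed in neither comparison. With shSNHG1#1, 9 members passed edgeR's quasi-likelihood test with a Benjamini-Hochberg adjusted p below 0.05, 2 higher and 7 lower, where 48.1% of the 18767 tested features passed (24.5% higher, 23.5% lower). With shSNHG1#2, 9 passed, 1 higher and 8 lower, where 46.2% of features passed (23.3% higher, 22.8% lower). The median log2 fold change of the members was -0.46 with shSNHG1#1 and -0.24 with shSNHG1#2, and that of all tested features was 0.02 and 0.01. CPM, the counts scaled to library size with TMM factors, did not overlap between groups for 9 members in each comparison, against 56.3% and 55.8% of features. FPKM did not overlap for 8 members in each comparison, against 53.3% and 52.6% of features. Both comparisons use the same 3 shNC libraries, so they are not independent of each other. A lower transcript level in bulk RNA cannot be told apart from fewer cells that express the gene.

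**Figure D2:**
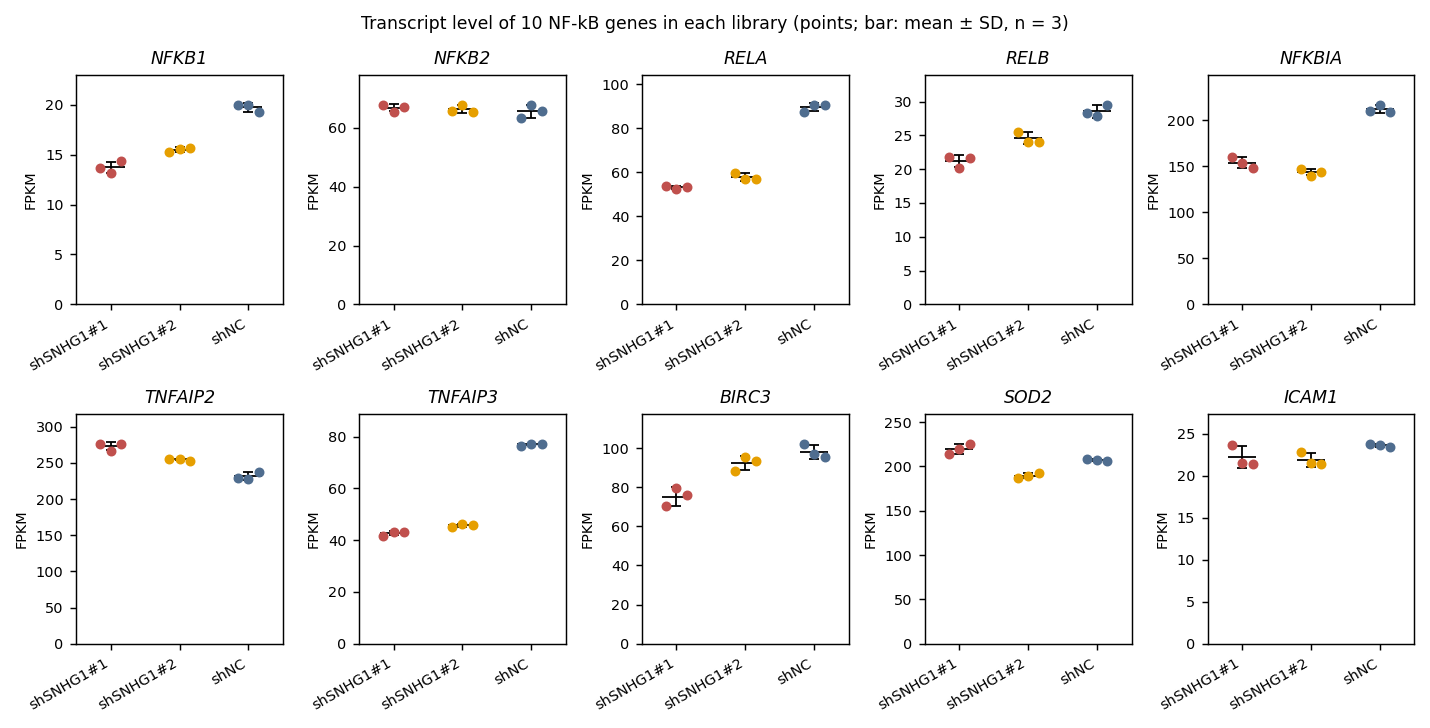
FPKM of the 10 NF-κB genes in each library (y axis; points are libraries, bars mean ± SD, n = 3 per group; axes start at 0; groups from left: shSNHG1#1, shSNHG1#2, shNC). NFKB1, RELA, RELB, NFKBIA and TNFAIP3 are lower in all 6 SNHG1 hairpin libraries than in any shNC library, and NFKB2 overlaps throughout.

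RELA, which encodes the p65 subunit with the main activation domain of canonical NF-κB, had the largest fall of the subunit genes. Its level was 53.7, 52.6 and 53.1 FPKM with shSNHG1#1 and 59.7, 56.8 and 56.7 FPKM with shSNHG1#2, against 87.4, 90.4 and 90.7 FPKM with shNC. All 6 hairpin libraries lay far below the shNC libraries. The log2 fold change was -0.79 ± 0.030 (SE; adjusted p = 5.7e-09) with shSNHG1#1, which is 1.73-fold lower, and -0.70 ± 0.030 (adjusted p = 1.98e-08) with shSNHG1#2, which is 1.62-fold lower.

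NFKB1 encodes p105, the precursor of the p50 subunit that pairs with p65. It was the lowest of the members, at 13.7, 13.2 and 14.3 FPKM with shSNHG1#1 and 15.2, 15.6 and 15.7 FPKM with shSNHG1#2, against 20.0, 20.0 and 19.2 FPKM with shNC. The 3 groups were fully separated in this order. Its log2 fold change was -0.56 ± 0.038 (adjusted p = 6.49e-07) with shSNHG1#1 and -0.43 ± 0.038 (adjusted p = 5.44e-06) with shSNHG1#2.

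The noncanonical pair split. RELB, whose product partners the p52 form of NFKB2, had 21.7, 20.2 and 21.7 FPKM with shSNHG1#1 and 25.6, 24.0 and 24.1 FPKM with shSNHG1#2, against 28.2, 27.8 and 29.6 FPKM with shNC, and it fell with both (log2 fold change -0.47 ± 0.045, adjusted p = 7.96e-06, and -0.29 ± 0.044, adjusted p = 0.000337). NFKB2 had 67.9, 65.5 and 67.0 FPKM with shSNHG1#1 and 65.7, 67.8 and 65.5 FPKM with shSNHG1#2, against 63.3, 67.9 and 65.6 FPKM with shNC. The NFKB2 ranges overlapped, and the log2 fold changes of -0.04 ± 0.032 (adjusted p = 0.323) and -0.07 ± 0.032 (adjusted p = 0.0983) did not pass. Its sign depended on the scale, since the ratio of mean FPKM to shNC was 0.03 and 0.02 in log2 units while the ratio of CPM was -0.04 and -0.07. NFKB2 passed as lower with shSNHG1#2 without shNC replicate 1 (-0.10, adjusted p = 0.027) and under DESeq2 (-0.08, adjusted p = 0.0491).

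TNFAIP3, which encodes the ubiquitin-editing enzyme A20 that shuts down signalling to NF-κB, had the largest change of all 10 members. It measured 41.7, 43.0 and 43.3 FPKM with shSNHG1#1 and 45.2, 46.2 and 46.0 FPKM with shSNHG1#2, against 76.6, 77.3 and 77.2 FPKM with shNC. Every SNHG1 hairpin library lay over 30 FPKM below every shNC library, and the hairpin groups lay close to each other. TNFAIP3 was 1.90-fold lower with shSNHG1#1 (log2 fold change -0.92 ± 0.023, adjusted p = 2.73e-10) and 1.81-fold lower with shSNHG1#2 (-0.85 ± 0.023, adjusted p = 5.91e-10).

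NFKBIA encodes IκBα, the inhibitor that NF-κB itself induces. It had 159.9, 153.5 and 148.4 FPKM with shSNHG1#1 and 146.6, 139.6 and 144.1 FPKM with shSNHG1#2, against 210.3, 216.8 and 209.2 FPKM with shNC. Of the 7 members that fell with both hairpins, it had the widest margin by which the fall with shSNHG1#2 exceeded that with shSNHG1#1. The log2 fold change was -0.49 ± 0.037 (adjusted p = 1.41e-06) with shSNHG1#1 and -0.62 ± 0.037 (adjusted p = 2.81e-07) with shSNHG1#2, which is 1.53-fold lower. The difference between hairpins, -0.13 ± 0.037, did not pass (adjusted p = 0.108).

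BIRC3 encodes cIAP2, a ubiquitin ligase of TNF receptor complexes that protects cells from death. Its level was 70.3, 79.6 and 75.8 FPKM with shSNHG1#1 and 88.2, 95.4 and 93.6 FPKM with shSNHG1#2, against 102.2, 96.8 and 95.3 FPKM with shNC. The shSNHG1#1 libraries were clearly lowest, while the highest shSNHG1#2 library exceeded the lowest shNC library. It was 1.37-fold lower with shSNHG1#1 (log2 fold change -0.46 ± 0.048, adjusted p = 1.67e-05) and 1.13-fold lower with shSNHG1#2 (-0.18 ± 0.048, adjusted p = 0.0101). The call with shSNHG1#2 was lost on the FPKM scale (limma, -0.09, adjusted p = 0.214) and when library totals alone set the scale (-0.11, adjusted p = 0.0746).

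ICAM1, the endothelial and epithelial adhesion molecule that binds leukocyte integrins, moved least with shSNHG1#1 of the 7 members that fell with both hairpins. It had 23.7, 21.6 and 21.4 FPKM with shSNHG1#1 and 22.8, 21.5 and 21.4 FPKM with shSNHG1#2, against 23.8, 23.7 and 23.5 FPKM with shNC. In FPKM the shSNHG1#1 range overlapped shNC and the shSNHG1#2 range did not. The log2 fold changes were -0.14 ± 0.046 (adjusted p = 0.0242) and -0.19 ± 0.046 (adjusted p = 0.00651). With shSNHG1#1 the call was lost when shSNHG1#1 replicate 2 or 3, or shNC replicate 1 or 2, was left out (adjusted p 0.0596 to 0.0778), when library totals alone were used (-0.10, adjusted p = 0.0906) and in limma on FPKM (-0.09, adjusted p = 0.133). In limma on FPKM it was also lost with shSNHG1#2 (-0.11, adjusted p = 0.0777).

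TNFAIP2, a TNF-inducible gene also known as M-sec and involved in membrane protrusions, was the most abundant member per transcript length. It had 276.2, 266.5 and 276.3 FPKM with shSNHG1#1 and 254.9, 255.8 and 253.2 FPKM with shSNHG1#2, against 228.6, 227.7 and 237.9 FPKM with shNC. The 3 groups did not overlap. It was the only member higher with both hairpins, with a log2 fold change of 0.19 ± 0.024 (adjusted p = 5.46e-05) with shSNHG1#1 and 0.07 ± 0.024 (adjusted p = 0.0288) with shSNHG1#2. The smaller change lost its call when any of shSNHG1#1 replicate 3, shSNHG1#2 replicates 1 and 2 and shNC replicates 1 and 2 was left out (adjusted p 0.0522 to 0.106), and with no filter on low counts (adjusted p = 0.123).

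SOD2, the mitochondrial manganese superoxide dismutase that NF-κB induces, was the one member called in opposite directions. It had 214.2, 220.3 and 225.6 FPKM with shSNHG1#1 and 187.5, 189.1 and 192.8 FPKM with shSNHG1#2, against 208.2, 207.1 and 206.2 FPKM with shNC. On CPM, which does not divide by length, it averaged 826 ± 18.2 with shSNHG1#1 and 718 ± 6.46 with shSNHG1#2, against 752 ± 6.09 with shNC (SD, n = 3 each). The log2 fold change was 0.13 ± 0.024 (adjusted p = 7e-04) with shSNHG1#1 and -0.07 ± 0.024 (adjusted p = 0.0387) with shSNHG1#2. The fall with shSNHG1#2 was lost when shSNHG1#1 replicate 3 or any single shSNHG1#2 or shNC library was left out (adjusted p 0.0555 to 0.108), with no filter on low counts (-0.08, adjusted p = 0.0576), and when library totals alone set the scale (-0.0019, adjusted p = 0.962).

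Each count together with its FPKM implies the transcript length the authors divided by, and for SOD2 this length was not constant. It was 3774 to 3778 bases with shSNHG1#1 and 3823 to 3890 bases with shSNHG1#2, against 3502 to 3602 bases with shNC, which is 6.74% and 9% longer than with shNC. A mean implied length at least 5% apart with no overlap was found for 11.9% and 12.1% of the 6165 features with a mean of at least 10 FPKM. Between shSNHG1#2 and shSNHG1#1 the SOD2 lengths differed by 2.12%, below that 5% mark, which 2.43% of those features reached without overlap. The share of features at least as far apart as SOD2 was not computed. Implied lengths of the other 9 members changed by 2.76% or less against shNC. When the implied length entered the fit as an offset, an alternative added after seeing the data, the SOD2 rise with shSNHG1#1 was 0.04 (adjusted p = 0.187), while the fall with shSNHG1#2 was larger, at -0.19 (adjusted p = 9.73e-05).

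**Figure D3:**
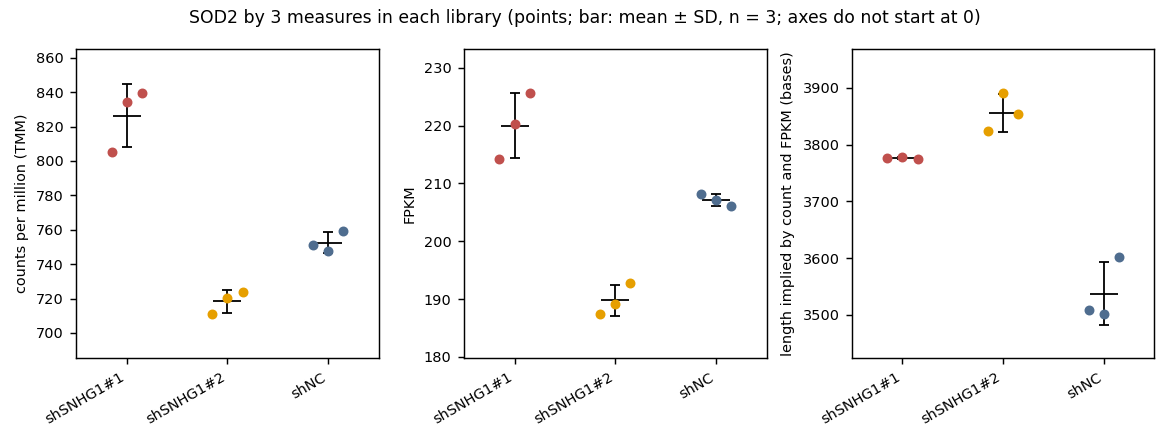
SOD2 in each library by 3 measures: CPM with TMM factors, FPKM, and the length in bases that the count and FPKM imply (points are libraries; bars mean ± SD, n = 3; axes do not start at 0; groups from left: shSNHG1#1, shSNHG1#2, shNC). The implied length is 3502 to 3602 bases in shNC and 3774 or more in every SNHG1 hairpin library.

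The hairpins were also compared directly, with shSNHG1#2 set against shSNHG1#1. In this comparison 3 of 10 members passed, 1 higher and 2 lower, where 3.12% of features passed (2.00% higher, 1.12% lower). BIRC3 was higher with shSNHG1#2 by 0.28 ± 0.048 on the log2 scale (adjusted p = 0.011). SOD2 was lower with shSNHG1#2 by a log2 fold change of -0.20 ± 0.024 (adjusted p = 0.001), and it passed in every one of the 20 alternatives run. TNFAIP2 was lower with shSNHG1#2 at -0.12 ± 0.024 (adjusted p = 0.0211). CPM did not overlap between the hairpins for 8 members, 5 higher and 3 lower with shSNHG1#2, where 20.8% of features did not overlap, and FPKM did not overlap for 8 members, where 19.2% of features did not. Leaving out shSNHG1#2 replicate 2 ended the BIRC3 call (adjusted p = 0.0578). Leaving out shSNHG1#1 replicate 1 or 3, or shSNHG1#2 replicate 2 or 3, ended the TNFAIP2 call (adjusted p 0.0571 to 0.133). It also ended with library totals alone, with no filter, with only the 6 libraries compared (adjusted p = 0.0604, 0.0544 and 0.067) and in limma on FPKM (adjusted p 0.103 to 0.151), so it held in 10 of 20 alternatives. RELB differed by 0.18 ± 0.045 (adjusted p = 0.0613) and passed under DESeq2 (adjusted p = 0.0115), with library totals alone (adjusted p = 0.0395) and in limma on filtered FPKM with a pseudocount of 1 or 0.1 (adjusted p = 0.046 and 0.0455), though not on unfiltered FPKM. NFKBIA passed under DESeq2 as well (-0.13, adjusted p = 0.0139).

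**Figure D4:**
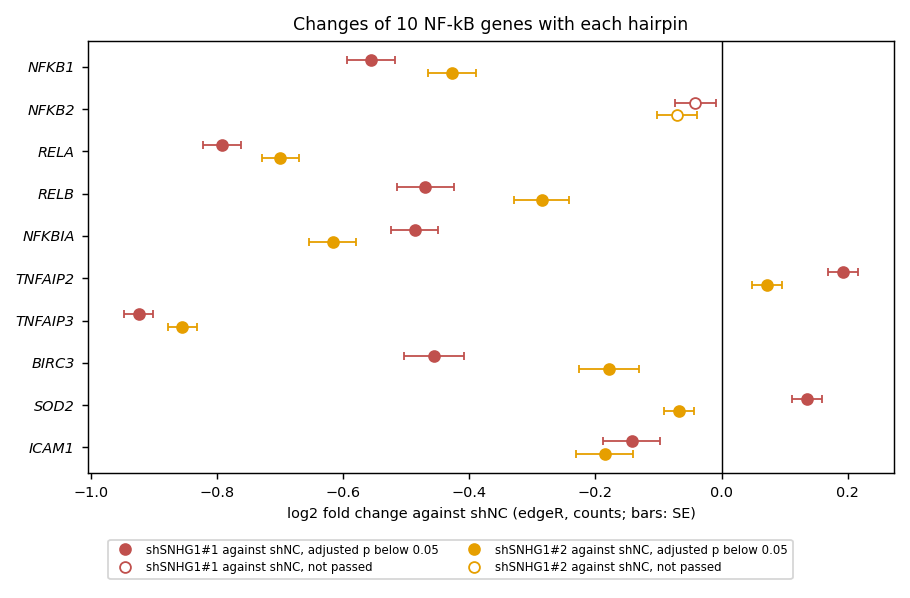
log2 fold change of the 10 NF-κB genes against shNC with each hairpin (x axis; edgeR on counts; red, shSNHG1#1; orange, shSNHG1#2; bars SE; filled points passed at an adjusted p below 0.05, open points did not). TNFAIP3 and RELA lie farthest to the left with both hairpins, TNFAIP2 lies right of 0 with both, and SOD2 lies at 0.13 and -0.07.

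Set in order of FPKM, which is per length, TNFAIP2 led and NFKB1 came last in every group. With shSNHG1#1 the order was TNFAIP2, SOD2, NFKBIA, BIRC3, NFKB2, RELA, TNFAIP3, ICAM1, RELB, NFKB1, and with shSNHG1#2 only RELB and ICAM1 changed places. In shNC the order was TNFAIP2, NFKBIA, SOD2, BIRC3, RELA, TNFAIP3, NFKB2, RELB, ICAM1, NFKB1, so NFKBIA stood above SOD2 and both RELA and TNFAIP3 stood above NFKB2. Neighbours in these orders did not overlap in any group, except ICAM1 and RELB with shSNHG1#1. By similarity of the centred log2 CPM over the 9 libraries, among 12707 features with a symbol, the closest to SOD2 was AKR1C1 (root mean square difference 0.0309), followed by CD24 and TM4SF1. Nearest to TNFAIP3 were TBC1D22A (0.0336), ELL2 and EHD2, and nearest to TNFAIP2 were ACLY (0.0189), MGAT5 and CDC25B.

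The gene lists below, like the members, were chosen with earlier results of these data known. Their counts beside the shares of all features are therefore a description and no test. Beyond the 10 members, 3 of 6 other genes of the Rel and IκB family fell and none rose with each hairpin, and the medians were -0.14 and -0.19. A count of 3 of 6 is near the 48.1% and 46.2% of all features that passed in either direction. By direction, 23.5% and 22.8% of all features were lower, and 24.5% and 23.3% were higher. REL, the c-Rel subunit, fell by a log2 fold change of -0.60 with shSNHG1#1 and -0.48 with shSNHG1#2. The nuclear IκB proteins NFKBIZ (-0.24 and -0.35) and BCL3 (-0.20 and -0.34) fell too. NFKBIB, another cytoplasmic inhibitor, did not pass (0.17, adjusted p = 0.0689, and 0.12, adjusted p = 0.213), but passed as higher with either hairpin without shNC replicate 2 (adjusted p = 0.0098 and 0.033), in limma on log2(FPKM + 1) (0.28 and 0.31, adjusted p = 0.00136 and 0.000827) and with the implied length as an offset (0.24 and 0.26, adjusted p = 0.00464 and 0.00354). With shSNHG1#1 it also passed with library totals alone, under the filter of 50 counts and under DESeq2 (adjusted p = 0.0264, 0.0497 and 0.048).

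Among 14 genes of the IκB kinase complex and its upstream kinases, 2 rose and 8 fell with shSNHG1#1 and 2 rose and 6 fell with shSNHG1#2, with medians of -0.22 and -0.11. Of all features, 23.5% and 22.8% were lower and 48.1% and 46.2% passed in either direction. CHUK, which encodes IKKα, rose by 0.55 and 0.56 on the log2 scale, with means of 13.1 ± 0.131 FPKM with shSNHG1#1 and 13.0 ± 0.909 with shSNHG1#2, against 8.43 ± 0.148 with shNC. MAP3K8, the kinase Tpl2, fell by -0.84 and -0.86, and MAP3K14, the noncanonical kinase NIK, fell by -0.61 and -0.58. TAB2, an adaptor of the TAK1 kinase, fell by -0.34 and -0.25. MAP3K7, which encodes TAK1 and was named after its values were seen, rose by 0.15 and 0.16, but the call was lost without shSNHG1#1 replicate 2 or shNC replicate 3 (shSNHG1#1; adjusted p 0.0561 and 0.054) and without shSNHG1#2 replicate 1 (shSNHG1#2; adjusted p = 0.0502), and with the implied length as an offset (0.03 and 0.07, adjusted p = 0.717 and 0.284). With shSNHG1#1 it was also lost in limma on FPKM (adjusted p 0.238 to 0.284) and with only the 6 libraries compared (adjusted p = 0.0534).

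Of 18 receptors and adaptors, 2 rose and 8 fell with shSNHG1#1 and 2 rose and 7 fell with shSNHG1#2 (medians -0.04 and -0.11). Counts of 10 and 9 of 18 passed in either direction are near the 48.1% and 46.2% of all features that passed. By direction, 23.5% and 22.8% of all features were lower, and 24.5% and 23.3% were higher. MYD88, the adaptor of interleukin-1 and Toll-like receptors, fell by -1.22 and -0.92, with means of 23.0 ± 0.76 FPKM with shSNHG1#1 and 28.7 ± 1.17 with shSNHG1#2, against 52.3 ± 0.883 with shNC. IL1RAP, the interleukin-1 receptor accessory chain, fell by -1.54 and -1.24, the RNA sensor TLR3 by -1.15 and -0.87, and its adaptor TICAM1 by -0.79 and -0.60. The risers, named after their values were seen, were the TNF receptor TNFRSF1A with both hairpins (0.28 and 0.24), TNFRSF1B with shSNHG1#2 (0.32) and TLR4 with shSNHG1#1. TLR4 rested on few reads, with 22.8, 13.7 and 11.8 estimated counts with shSNHG1#1, against 0, 4.84 and 2.74 with shNC. With shSNHG1#2 against shSNHG1#1, IL1RAP, TLR3 and MYD88 were higher (0.30, 0.28 and 0.30) and none of the 18 was lower. Of all features, 2.00% were higher and 1.12% lower in that comparison. Without shSNHG1#1 replicate 1 the count of higher genes was 1 in place of 3.

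Of 14 ubiquitin enzymes and brakes of the pathway, none rose and 9 fell with shSNHG1#1, and 7 fell with shSNHG1#2 (medians -0.23 and -0.13), where 23.5% and 22.8% of all features were lower and 24.5% and 23.3% higher. In either direction 48.1% and 46.2% of all features passed, and the 7 of 14 with shSNHG1#2 is near that share. BIRC2, which encodes cIAP1, fell by -0.61 and -0.41. RBCK1, the HOIL-1 part of the linear ubiquitin assembly complex, fell by -0.61 and -0.48, TNIP1, an A20-binding protein, by -0.61 with each hairpin, and the ligase ITCH by -0.45 and -0.38. BIRC2 was higher with shSNHG1#2 than with shSNHG1#1 (0.20), a call lost without shSNHG1#1 replicate 1.

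Of 8 ligand genes, none rose, and 3 fell with shSNHG1#1 and 5 with shSNHG1#2 (medians -0.25 and -0.37). Of all features, 23.5% and 22.8% were lower and 24.5% and 23.3% higher with shSNHG1#1 and shSNHG1#2. In either direction 48.1% and 46.2% of all features passed. TNFSF10, the death ligand TRAIL, fell by -1.43 and -1.04, with means of 18.0 ± 0.817 FPKM with shSNHG1#1 and 23.8 ± 1.11 with shSNHG1#2, against 46.7 ± 1.59 with shNC, and it was higher with shSNHG1#2 than with shSNHG1#1 by 0.39 (adjusted p = 0.000984). IL1A fell by -0.53 and -0.62 and TNFSF12, which encodes TWEAK, by -0.40 and -0.37. TNF stayed below 1 FPKM on average in every group, at 0.52 ± 0.132 with shSNHG1#1 and 0.26 ± 0.0458 with shSNHG1#2, against 0.69 ± 0.0173 with shNC, and passed with shSNHG1#2 alone (-1.45, adjusted p = 0.00289); with shSNHG1#1 it was -0.45 (adjusted p = 0.239). IL1B, named after its values were seen, fell with shSNHG1#2 (-0.36, adjusted p = 0.0227), a call lost without shSNHG1#2 replicate 3 or shNC replicate 3 (adjusted p 0.0777 and 0.0858). It was also lost with library totals alone (adjusted p = 0.0545), under DESeq2 (adjusted p = 0.0646), with the implied length as an offset (adjusted p = 0.101) and in limma on FPKM (adjusted p 0.116 to 0.181).

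The 25 tested genes of the list of further NF-κB targets had medians of -0.42 and -0.58, with 3 higher and 13 lower with shSNHG1#1 and 3 higher and 16 lower with shSNHG1#2, where 24.5% of all features were higher and 23.5% lower with shSNHG1#1, and 23.3% higher and 22.8% lower with shSNHG1#2. CXCL8, the neutrophil chemokine interleukin-8, fell by -1.12 and -1.18, with means of 91.3 ± 3.47 FPKM with shSNHG1#1 and 89.3 ± 1.19 with shSNHG1#2, against 188.8 ± 3.08 with shNC. The cytokine LIF fell by -1.03 with each hairpin, the kinase NUAK2 by -1.39 and -1.54, and the ephrin EFNA1 by -1.19 and -1.39. Risers named after their values were seen were PLAU, the urokinase protease (0.92 and 0.66), the adhesion molecule VCAM1 (0.38 and 0.49) and the survival gene BCL2A1 (0.18 and 0.17). The BCL2A1 call was lost with shSNHG1#1 when shSNHG1#1 replicate 1 or 3, shSNHG1#2 replicate 3 or any shNC library was left out (adjusted p 0.0573 to 0.122), and with shSNHG1#2 when shSNHG1#1 replicate 3, shSNHG1#2 replicate 1 or 3 or any shNC library was left out (adjusted p 0.0512 to 0.13). With both hairpins it was also lost with no filter (adjusted p = 0.0793 and 0.0915) and under DESeq2 (adjusted p = 0.114 and 0.126). With shSNHG1#2 against shSNHG1#1, 9 of these targets were lower and none higher, where 1.12% of all features were lower, and 6 were lower without shSNHG1#1 replicate 1.

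SOD2 was also set beside 7 tested genes of superoxide and peroxide defence, of which 5 rose and none fell with shSNHG1#1, and 4 rose and 1 fell with shSNHG1#2 (medians 0.17 and 0.11). Of all features, 24.5% and 23.3% were higher, and 23.5% and 22.8% were lower. CAT, which encodes catalase, rose by 0.50 and 0.44, with means of 28.5 ± 0.198 FPKM with shSNHG1#1 and 27.6 ± 0.494 with shSNHG1#2, against 19.5 ± 0.591 with shNC. The peroxidases GPX1 (0.58 and 0.45) and PRDX5 (0.41 and 0.38) rose with both. SOD1, the cytosolic superoxide dismutase, rose by 0.14 with shSNHG1#1 and 0.08 with shSNHG1#2 (adjusted p = 0.0423). The call with shSNHG1#2 was lost when shSNHG1#1 replicate 3, shSNHG1#2 replicate 1 or 3 or any shNC library was left out (adjusted p 0.0544 to 0.165). The same call was lost with no filter (adjusted p = 0.114), under DESeq2 (adjusted p = 0.1) and with the implied length as an offset (0.05, adjusted p = 0.277). DESeq2 size factors in edgeR (adjusted p = 0.0657) and a replicate block (adjusted p = 0.0641) also ended it, so it held in 9 of 20 alternatives. Named after their values were seen, TXN2 rose with shSNHG1#1 (0.17) and PRDX3, the mitochondrial peroxidase, fell with shSNHG1#2 (-0.13). The TXN2 call was lost without shSNHG1#1 replicate 1 or any shNC library (adjusted p 0.0505 to 0.0982), and the PRDX3 call without shSNHG1#2 replicate 1 or 3 or shNC replicate 1 (adjusted p 0.0504 to 0.0868), with library totals alone (-0.06, adjusted p = 0.266) and in limma on FPKM (adjusted p 0.321 to 0.41).

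**Figure D5:**
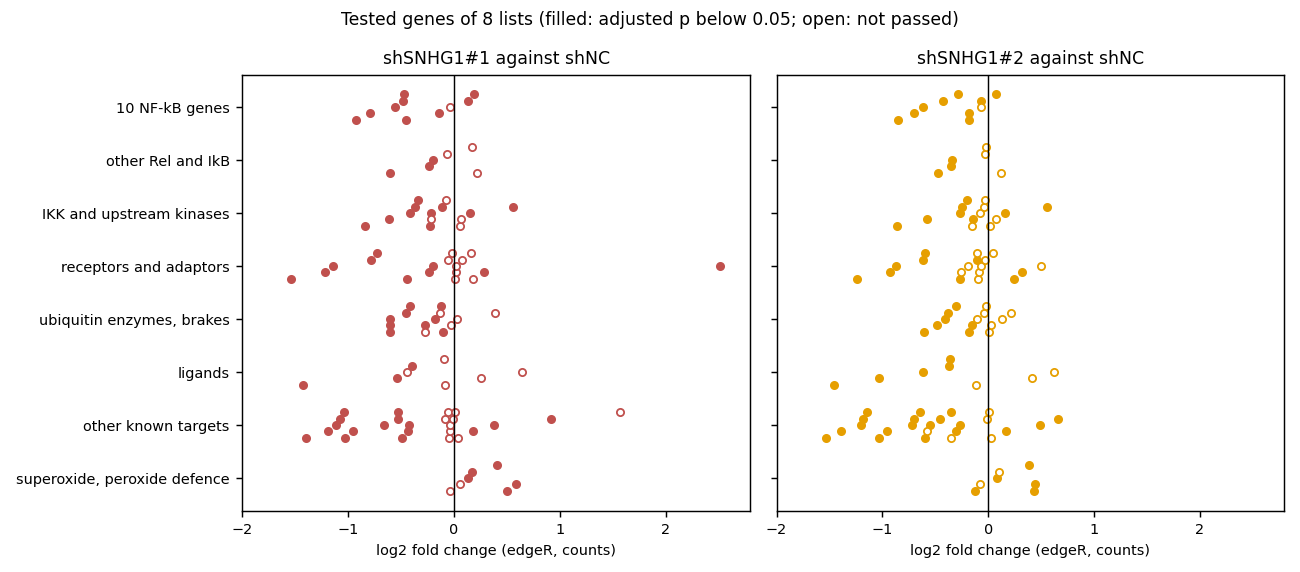
log2 fold change against shNC of each tested gene in 8 lists (x axis; left panel shSNHG1#1, right panel shSNHG1#2; filled points passed at an adjusted p below 0.05, open points did not; IER3, at -7.22 with shSNHG1#2, lies off the axis). Filled points lie mostly left of 0 in every list except superoxide and peroxide defence, where 5 of 7 and 4 of 7 lie to the right.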

How the data were processed

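RNA of 9 libraries labelled Weri-RB1/CRP was sequenced on a BGI platform, per the labels' protocols. Per the submitters' processing notes, RSEM 1.2.12 and DESeq2 1.4.5 were used, as were the aligners Bowtie2 2.2.5 and HISAT2 2.0.4. Genome build and annotation: not given in the sources used here. The authors deposited estimated counts per gene and an expression value per gene, taken as FPKM from its proportionality to count over length; per the file headers it is only an expression value. The table held 0 value columns that were given no sample. The deposited estimated counts, rounded to integers, entered edgeR 4.0.16 (R 4.3.3): TMM factors, filterByExpr, 1 quasi-likelihood fit of all 9 libraries on group alone, and Benjamini-Hochberg adjustment over 18767 features at 0.05. All 10 members passed the filter. Alternatives used DESeq2 1.42.0 and limma 3.58.1 on log2(FPKM + 1) and log2(FPKM + 0.1). Standard errors are the log2 fold change divided by the square root of F. Fold changes are relative to the TMM scale. The fit was tested on simulated counts, and the outcome of that test is not given here. The members and gene lists were chosen with earlier results of these data known. Named list genes are up to 4 per list with the smallest p against shNC, and like genes the 3 nearest in pattern to SOD2, TNFAIP3 and TNFAIP2. RELB had no promoter entry. Replicates of a group differed beyond sampling noise, so none were merged.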

Additional observations from a re-analysis of the deposited data

Results flagged for a closer look

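For 3 members the effects of the hairpins differed in the direct test of shSNHG1#2 against shSNHG1#1. The log2 fold change was 0.28 for BIRC3 (0.2767 before rounding), -0.12 for TNFAIP2 (-0.1205) and -0.20 for SOD2 (-0.202), with adjusted p of 0.011, 0.0211 and 0.001 in edgeR. The TNFAIP2 difference held in 10 of 20 alternatives, that of BIRC3 in 19 and that of SOD2 in all 20. All 3 libraries of shSNHG1#2 lay on one side of all 3 of shSNHG1#1 in CPM for each of these genes. Groups of 3 libraries are too small for a test of single outlying samples.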

How the results depend on the processing

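The calls of NFKB1, RELA, RELB, NFKBIA and TNFAIP3 against shNC held under all 20 alternatives with both hairpins, as did those of BIRC3 and TNFAIP2 with shSNHG1#1. NFKB2 changed sign with shSNHG1#1 when library totals alone were used (0.0049) and in limma on FPKM (0.0265, 0.0269 with the pseudocount of 0.1, 0.0265 with no filter), and with shSNHG1#2 in limma (0.0168, 0.017 and 0.0168); its level ratio was -0.0415 and -0.0707 on CPM. ICAM1 between hairpins ran over -0.0705 to 0.005 when each library was left out, changing sign without shSNHG1#1 replicate 1. Members higher with shSNHG1#1 numbered 1 with the implied length as an offset, chosen after seeing the data, and members higher with shSNHG1#2 numbered 0 with no filter and 0 to 1 when each library was left out. For shSNHG1#2 against shSNHG1#1, 586 features passed, 959 under DESeq2 (602 higher, 357 lower), 352 in limma with no filter, 379 with the 6 libraries compared and 300 to 539 when each library was left out (240 to 347 higher, 60 to 199 lower); the lower ones, 211, became 100 and 99 in limma, 69 in limma with no filter, 108 with 6 libraries and 137 with the replicate block. Members higher were 2 with library totals alone, under DESeq2 and in limma with either pseudocount, and members lower were 1 with library totals alone, no filter, limma and 6 libraries. Replicate numbers showed no clear pairing of the libraries. Same-numbered deviations correlated at -0.077 to 0.077 over 9 pairs, against -0.117 to 0.085 for differently numbered libraries of different groups. In both other groups at once, 0 libraries correlated best with their own number, though some did in 1 of them. With the replicate block 8752, 8421 and 433 features passed, against 9023, 8669 and 586.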

Other observations

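IER3, a stress-response target in the list of further NF-κB targets, had 110.9, 54.5 and 0 estimated counts with shSNHG1#1 and 0 in all 3 shSNHG1#2 libraries, against 54.0, 0 and 0 with shNC, so it is listed at 0 in 6 of 9 libraries.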
